A study of Mus musculus with 20 samples.

Results

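The 45 genes described here encode Myc and proteins of the nucleolus that make, modify and assemble ribosomes. They were taken by gene symbol from a fixed list. All 45 were among the 10696 genes listed for IL25R+ cells, and 44 were among the 10580 listed for ST2+ cells, where Nip7 was not listed. Their levels were followed in group 2 innate lymphoid cells (ILC2, tissue lymphocytes that make type 2 cytokines) of the thymus, sorted from young wild-type males of the mouse. The age in weeks and the number of animals behind each library are not given in the sources used here. Sorted cells were kept in medium with 10 ng/mL IL-7 for 12 h and, after a change of medium, for another 24 h, so every group had IL-7 in its culture. Cells sorted for high IL25R then had PBS (vehicle), 10 ng/mL recombinant IL-25, 10 ng/mL recombinant IL-33 or both for 24 h, with 3 libraries in each of these 4 groups. Cells sorted for ST2, the receptor for IL-33, had PBS or IL-33 for the same time, with 4 libraries in each group. RNA was read by bulk MARS-seq, a method that counts the 3' ends of polyadenylated transcripts.

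Ribosomes are built in the nucleolus, where RNA polymerase I transcribes the ribosomal RNA precursor. Box C/D and box H/ACA small nucleolar ribonucleoproteins (snoRNPs) methylate and pseudouridylate that RNA, and many assembly factors fold and cut it into the small and the large subunit. Myc is a transcription factor that binds the E-box CACGTG with its partner Max, and genes of ribosome synthesis are among its best known targets. Lymphocytes that leave rest and grow enlarge their nucleoli.

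The members' promoters were searched for the E-box CACGTG that Myc is known to bind, which reads the same on both strands. RefSeq promoters (GRCm38.p6, 250 bases before to 50 after the start) were at hand for 39 members and not for Rrs1, Myc, Fbl, Rrp12, Bop1 and Npm1. The motif lay in a promoter of 9 of the 39 members, or 23.1%. It lay in those of 11.9% of the listed genes with a promoter in the table and of 8.09% of all genes there. In Grwd1, Nle1, Pes1, Pno1, Tsr1, Utp20 and Wdr43 it began 3 to 38 bases after the start. In Imp4 and Nop2, which encode a small subunit factor and a large subunit rRNA methyltransferase, it lay before the start. Of the 9 members with the motif, 4 rose with both cytokines over vehicle (Imp4, Nop2, Pno1 and Wdr43), as did 13 of all 44 tested. The Imp4 and Nop2 windows are shown, as the 2 that lie before the start, with the E-box in capitals, 121 bases before the start of Imp4 (chr1:34439681-34439740, + strand) and 60 bases before that of Nop2 (chr6:125131796-125131855, + strand).
Imp4: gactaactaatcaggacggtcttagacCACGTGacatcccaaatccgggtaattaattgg
Nop2: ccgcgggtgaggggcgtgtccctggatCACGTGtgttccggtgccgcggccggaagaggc
A match describes these letters and does not show that Myc was bound.

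Another feature of the genes themselves is that some carry small nucleolar RNA genes in their introns. In GENCODE M21 (GRCm38), 8 of the 45 members, or 17.8%, held at least 1 snoRNA gene, against 1.72% of the 10983 listed protein-coding genes that could be matched. These were Nop56 with 5 snoRNA genes, Nop58 with 4, Ncl, Gnl3 and Wdr43 with 3 each, Tsr1 and Ppan with 2 each and Dkc1 with 1. Counts of polyadenylated 3' ends do not measure the snoRNAs. Exons of 21 members overlap exons of a gene on the other strand, and whether the counting used strand is not stated. Reads within such an overlap may thus have been counted for either gene or for neither. How long each overlap is, and whether it lies at the 3' end, was not measured.

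Library totals were 834913 to 1880906 counts in IL25R+ cells and 537999 to 5453444 in ST2+ cells. The summed level of the ILC2 marker list was 3558 to 4397 CPM (counts scaled to library size with TMM factors, the unit of every level below) in IL25R+ libraries, with Areg not listed. In ST2+ cells it was 3580 to 4345 CPM with vehicle and 2285 to 3584 CPM with IL-33, ranges that barely overlapped. Gapdh, a glycolytic enzyme, was at 3.80 to 10.5 CPM with vehicle and 811 to 913 CPM with both cytokines, and within the other IL25R+ groups it was high in IL-25 library 3 (1412 CPM) and IL-33 library 2 (924 CPM) and at 8.04 to 12.8 CPM in the rest. In ST2+ cells Gapdh was at 28.9 to 1927 CPM with vehicle and 35.5 to 2464 CPM with IL-33. The part of this split in the results for both cytokines was not tested. The IL25R+ libraries also fell on both sides of a split in Glycam1, which was at 0.731 CPM or less in the 3 IL-25 libraries and IL-33 libraries 1 and 2 and above 100 CPM in the other 7. The split thus falls between the IL-25 group and both the vehicle and the both-cytokine group, and only the IL-33 group has libraries on each side. A term for the split is therefore estimated from the 3 IL-33 libraries alone, library 3 against libraries 1 and 2. Values given with that term carry this gap over to the other groups. Among ST2+ libraries, IL-33 library 2 stood apart. Ribosomal protein genes summed to 45.5% of its TMM-scaled library size against 17.4% to 27.3% in the other IL-33 libraries. Part of this gap is scaling, as its TMM factor was 0.761 against 0.968 to 1.10 in those libraries. ST2+ libraries 1 and 4 of each group were also deeper (1782717 to 5453444 counts) than libraries 2 and 3 (537999 to 1628223). Fewer cells of a type and less RNA per cell cannot be told apart in such bulk samples. Nothing says that the libraries came from separate animals or cultures, so p-values measure only the spread between these libraries.

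The members as a whole were higher with both cytokines in IL25R+ cells and with IL-33 in ST2+ cells. Their share of all counts was 0.388% to 0.408% in IL25R+ vehicle libraries, 0.421% to 0.434% with IL-25, 0.403% to 0.422% with IL-33 and 0.48% to 0.512% with both. In ST2+ vehicle libraries it was 0.265% to 0.320%, and with IL-33 it was 0.638%, 0.332%, 0.575% and 0.630% in libraries 1 to 4. By this share the IL-25 and both-cytokine groups lay wholly above vehicle in IL25R+ cells, and in ST2+ cells IL-33 library 2 was just above the highest vehicle library while the other 3 were far above it. In CPM, which takes in its TMM factor of 0.761, library 2 stood further above, at 4390 against at most 3268 CPM with vehicle.

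**Figure D1:**
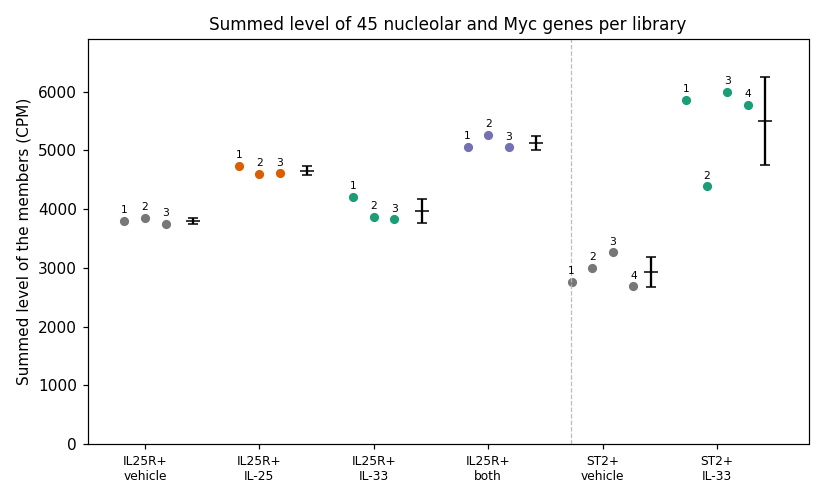
Summed level of the members in each library in CPM, with the library number over each point and the group mean ± SD in black; dashed line between populations. ST2+ IL-33 library 2 is at 4390 CPM and the other 3 IL-33 libraries are at 5775 to 5997 CPM, against 2684 to 3268 CPM with vehicle.

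IL-25 was set against vehicle in IL25R+ cells to measure the response to that cytokine alone. Of 44 members tested (Nip7 was removed as too low, with 2 to 11 counts per library), 11 rose and 2 fell by edgeR's quasi-likelihood test at a Benjamini-Hochberg adjusted p under 0.05. Over all 8850 tested genes, 15% were called, 9.07% higher and 5.9% lower. Those that rose were Fbl, Nhp2, Gar1, Nop10, Npm1, C1qbp, Pno1, Nop16, Mrto4, Rrp15 and Grwd1, and those that fell were Rrp12 and Wdr12. The log2 change was above 0 in 31 of 44 members and in 47.8% of all genes, and the members' median was 0.20 against -0.03. Groups did not overlap in 17 members that were higher and 3 that were lower, against 18.6% and 16.7% of all genes. Scaled by library totals alone, the median of all genes moved by -0.18, 2 members were called higher and 3 lower, and the members' median was 0.01. With the Glycam1 split as a term 4 members were called and by DESeq2 7. The count was 3 without vehicle library 1 or 3, 7 without vehicle library 2 or IL-25 library 1, and 5 without IL-25 library 2 or 3. No share over all genes is set beside these counts.

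IL-33 alone called 1 of the 44 members in IL25R+ cells, C1qbp, where 0.237% of all genes were called, 0.181% higher and 0.0565% lower, and 12.1% had an unadjusted p under 0.05. The log2 change was above 0 in 27 members and in 50.8% of all genes. Groups did not overlap in 6 members that were higher and 2 that were lower, against 7.53% and 6.98% of all genes. DESeq2 and limma-voom also called 1 member. Leaving out a single library of the vehicle group, of the IL-25 group or IL-33 library 1 gave no member. With IL-33 libraries 1 and 2 left out together 2 members were called, 1 in each direction.

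Both cytokines together raised 13 members over vehicle and lowered 1 (Wdr12), where 15.6% of all genes were called, 8.97% higher and 6.67% lower. Those that rose were Myc, Nop56, Fbl, Nhp2, Gar1, Npm1, C1qbp, Wdr43, Imp4, Pno1, Mrto4, Nop2 and Rrp15. The log2 change was above 0 in 36 members and in 47.2% of all genes, and the members' median was 0.39 against -0.03. In 26 of the 44 members all 3 libraries with both cytokines were above all 3 vehicle libraries, as they were in 18.6% of all genes, and in 3 they were all below, as in 17.7%. No share over all genes is set beside the counts of members under other fits that follow. Without vehicle library 1 the count was 8 and without vehicle library 3 it was 9, while it was 22 with these 2 groups fitted alone and 23 without IL-33 libraries 1 and 2.

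Adding IL-33 to IL-25 raised Nop56 and Wdr43 and lowered Nop10, 3 of 44 members where 3.14% of all genes were called, 1.36% higher and 1.79% lower. The log2 change was above 0 in 32 members and in 50.6% of all genes. Groups did not overlap in 16 members that were higher and 3 that were lower, against 13.2% and 13.3%. With the Glycam1 split as a term none of the 3 was called. The counts under other fits that follow have no share over all genes beside them. The count was 1 without IL-25 library 1 or 3 or without library 1 or 2 with both, 6 without IL-33 library 3, 10 without IL-33 libraries 1 and 2 and 11 with the 2 groups alone.

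Adding IL-25 to IL-33 raised 10 members and lowered none, where 17.2% of all genes were called, 9.29% higher and 7.88% lower. The log2 change was above 0 in 39 members and in 47.1% of all genes, and groups did not overlap in 15 members that were higher and 1 that was lower, against 16.3% and 15.4%. The members that rose were Nop56, Nop58, Nhp2, Ncl, Npm1, Nop14, Imp4, Tsr1, Pno1 and Nop2. Leaving out IL-33 library 2 gave 5, and leaving out the third both-cytokine library gave 6, with no share over all genes beside these counts. The departure of the joint effect from the sum of the single effects (interaction) was called for C1qbp alone, where 2.35% of all genes were called, 1.04% higher and 1.31% lower. The interaction was above 0 in 28 members and in 48.6% of all genes. That count was 0 when a single vehicle, IL-25 or both-cytokine library was left out and 4 without IL-33 library 3.

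In ST2+ cells IL-33 raised 18 of 42 members tested and lowered none, where 16.5% of the 7626 tested genes were called, 8.52% higher and 8.03% lower. The log2 change was above 0 in 39 members and in 50.1% of all genes, and the members' median was 0.87 against 0.00136. In 18 members every IL-33 library lay above every vehicle library and in none below, against 11.6% and 10.4% of all genes. Of the 18 called, 11 were large subunit factors. IL-33 library 2 was the lowest of the 4 IL-33 libraries in 24 of 44 members and the highest in 11, and without it 29 members were called. Without vehicle library 1, IL-33 library 1 or IL-33 library 4 the count was 9, each time among the 18. Shares over all genes were not set beside these ranks and counts, so they do not set the members apart from other genes. Libraries 1 and 4 of each group alone gave 33 calls (32 higher and 1 lower, where 37.4% of all genes were called), and libraries 2 and 3 of each group alone gave 0 (0.472% of all genes), with a members' median of 0.57.

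**Figure D2:**
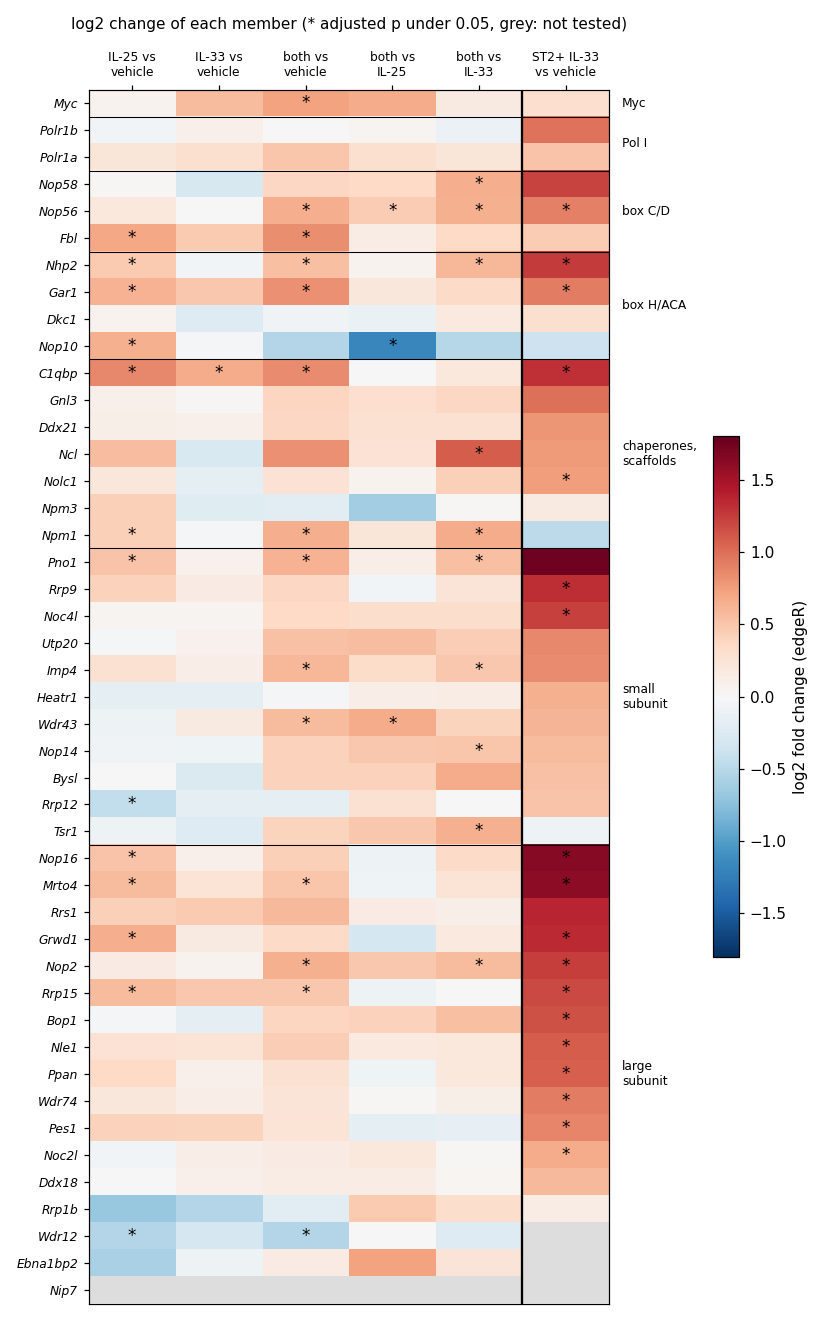
log2 fold change of each member by edgeR in 6 comparisons, with members ordered by role and by their change in ST2+ cells; an asterisk marks an adjusted p under 0.05 and grey marks members not tested. In the ST2+ column 11 of the 14 large subunit factors tested are called, while the 2 RNA polymerase I rows hold none. Over all genes 8.52% were called higher there.

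Other measures moved with these results. In IL25R+ cells Mki67, a marker of cycling cells, was at 2.62 to 12.9 CPM with vehicle, 48.2 to 63.5 CPM with IL-25, 8.68 to 15.3 CPM with IL-33 and 39.95 to 57.3 CPM with both. In ST2+ cells Mki67 was at 68.6 to 131 CPM with vehicle and 20.04 to 118 CPM with IL-33, overlapping ranges. The T cell and thymocyte list (7 of 8 markers listed) summed in IL25R+ cells to 957 to 1028 CPM with vehicle, 684 to 727 CPM with IL-25, 877 to 1138 CPM with IL-33 and 611 to 681 CPM with both. In ST2+ cells, where 5 of the 8 were listed, it summed to 36.7 to 139 CPM with vehicle and 12.1 to 66.6 CPM with IL-33. Of 4 endothelial markers only Pecam1 was listed, at 77.8 to 85.5 CPM with vehicle, 151 to 165 CPM with IL-25 and 182 to 201 CPM with both, and at 12.0 to 29.5 CPM in ST2+ vehicle against 54.5 to 103 CPM in ST2+ IL-33 libraries. The B cell list (2 of 4 markers listed, Ms4a1 in neither table) summed to 135 to 195 CPM with vehicle, 203 to 283 CPM with IL-25, 115 to 147 CPM with IL-33 and 175 to 216 CPM with both, and to 18.9 to 31.1 CPM in ST2+ vehicle against 32.3 to 51.2 CPM in ST2+ IL-33 libraries. The 4 erythroid markers were not listed in either table, and the fibroblast list reached 487 CPM in ST2+ vehicle against at most 49.9 CPM with IL-33. The part of these in the members' results was not tested.

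Myc (chr15:61985391-61990374, + strand, GRCm38) itself was called in 1 comparison. In IL25R+ cells it was at 53.0, 32.8 and 27.5 CPM in vehicle libraries 1 to 3, at 49.9, 46.1 and 26.4 CPM with IL-25, at 60.6, 49.2 and 65.6 CPM with IL-33 and at 82.8, 51.4 and 62.4 CPM with both. The vehicle and IL-25 libraries covered the same range, and 2 of the 3 libraries with both lay above every vehicle library. Myc rose with both cytokines over vehicle by 0.73 ± 0.24 (log2 ± SE, edgeR adjusted p = 0.0435), and this call was lost by limma-voom and without vehicle library 2 or 3. IL-33 alone gave 0.57 ± 0.25 (adjusted p = 0.365) and IL-25 alone 0.06 ± 0.26 (0.907) by edgeR.

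In ST2+ cells Myc was at 123, 157, 91.2 and 139 CPM with vehicle and at 215, 46.8, 136 and 227 CPM with IL-33. Library 2 was the lowest of all 8 and libraries 1 and 4 the highest. Its log2 change was 0.31 ± 0.39 (edgeR adjusted p = 0.629) with all libraries and 0.63 (0.0483) without IL-33 library 2. Max, the partner that Myc needs to bind DNA, rose in ST2+ cells by 0.88 ± 0.22 (edgeR adjusted p = 0.019). Max was at 41.8 to 61.4 CPM with vehicle and 79.0 to 112 CPM with IL-33.

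The RNA polymerase I subunits Polr1a, the catalytic large subunit (chr6:71909053-71984935, + strand), and Polr1b, the second largest (chr2:129100995-129126594, + strand), were called in no comparison. Polr1a was at 22.2, 24.6 and 28.5 CPM with vehicle, 28.5, 31.9 and 26.4 CPM with IL-25, 21.2, 30.4 and 40.6 CPM with IL-33 and 29.1, 34.5 and 42.04 CPM with both. In ST2+ cells it was at 43.0, 23.5, 25.8 and 39.6 CPM with vehicle and 57.5, 45.6, 41.6 and 49.8 CPM with IL-33, so the groups overlapped by 1 vehicle library. Polr1a had log2 changes of 0.50 ± 0.24 with both cytokines over vehicle (edgeR adjusted p = 0.162) and 0.52 ± 0.25 with IL-33 in ST2+ cells (0.185). Polr1b was low, at 5.86 to 18.8 CPM in all IL25R+ libraries. In ST2+ cells Polr1b was at 8.28, 9.03, 15.5 and 10.7 CPM with vehicle and 26.1, 7.79, 21.1 and 25.7 CPM with IL-33, above every vehicle library except in library 2, with a log2 change of 0.98 ± 0.40 (edgeR adjusted p = 0.113).

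The box C/D core proteins guide and carry out 2'-O-methylation of ribosomal RNA, with Fbl as the methyltransferase and Nop56 and Nop58 as its scaffold. Fbl (chr7:28169710-28179269, + strand) was at 122, 142 and 121 CPM with vehicle, 200, 231 and 189 CPM with IL-25, 278, 130 and 119 CPM with IL-33 and 241, 204 and 235 CPM with both. All IL-25 and both-cytokine libraries were above all vehicle libraries, and 1 IL-33 library was the highest of the 12 while the other 2 lay in and just below the vehicle range. Fbl rose by 0.70 ± 0.21 with IL-25 (edgeR adjusted p = 0.0309) and by 0.83 ± 0.21 with both (0.0101). With the Glycam1 split as a term the IL-25 value was -0.080 (0.914). That term rests on the IL-33 libraries alone, where library 1 was at 278 CPM against 130 and 119 CPM. In ST2+ cells Fbl was at 110, 163, 189 and 143 CPM with vehicle and 167, 207, 292 and 164 CPM with IL-33, overlapping groups with a log2 change of 0.46 ± 0.25 (edgeR adjusted p = 0.22).

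Nop58 (chr1:59684971-59719044, + strand) and Nop56 followed another course, with little change by either cytokine alone in IL25R+ cells. Nop58 was at 226, 259 and 238 CPM with vehicle, 266, 211 and 251 CPM with IL-25, 254, 175 and 160 CPM with IL-33 and 308, 350 and 276 CPM with both. The libraries with both cytokines lay above all other IL25R+ libraries. Nop58 rose with both over IL-33 by 0.66 ± 0.15 (edgeR adjusted p = 0.00426) and was at 0.37 ± 0.15 over vehicle (0.1). Nop56 was at 158 to 170 CPM with vehicle, 187 to 189 CPM with IL-25, 161 to 176 CPM with IL-33 and 218 to 282 CPM with both, and it rose with both over vehicle (0.65 ± 0.12), over IL-25 (0.46 ± 0.12) and over IL-33 (0.64 ± 0.12), at edgeR adjusted p = 0.000789, 0.0336 and 0.000882. The calls of Nop56 over vehicle and over IL-33 were kept under all 21 alternatives, the call over IL-25 under 14.

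In ST2+ cells Nop58 was at 39.9, 52.4, 79.2 and 30.3 CPM with vehicle and 133, 43.4, 135 and 133 CPM with IL-33. Library 2 lay within the vehicle range and the other 3 IL-33 libraries above it. Its log2 change of 1.21 ± 0.39 had an edgeR adjusted p of 0.0547, and without library 2 it was 1.53 (0.00238). Nop56 rose there by 0.91 ± 0.25 (0.029), from 61.4 to 107 CPM with vehicle to 125 to 207 CPM with IL-33. That call was lost when a single vehicle library, or IL-33 library 1 or 4, was left out.

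The box H/ACA core proteins pseudouridylate ribosomal RNA, with Dkc1 as the enzyme and Nhp2, Gar1 and Nop10 as its partners. Nhp2 (chr11:51619735-51623714, + strand) was at 198, 239 and 252 CPM with vehicle, 319, 301 and 335 CPM with IL-25, 231, 190 and 243 CPM with IL-33 and 326, 330 and 346 CPM with both. The 6 libraries that had IL-25 lay above the 6 that did not. Nhp2 rose by 0.48 ± 0.13 with IL-25 (edgeR adjusted p = 0.0128), by 0.54 ± 0.13 with both over vehicle (0.00482) and by 0.60 ± 0.13 with both over IL-33 (0.00209). In ST2+ cells it was at 307, 323, 425 and 369 CPM with vehicle and 855, 898, 866 and 805 CPM with IL-33. Every IL-33 library, library 2 included, was above 800 CPM, and the rise was 1.27 ± 0.19 (edgeR adjusted p = 0.00198).

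Gar1 rose with IL-25 (0.62 ± 0.15), with both over vehicle (0.83 ± 0.15) and with IL-33 in ST2+ cells (0.92 ± 0.23), at edgeR adjusted p = 0.00756, 0.000524 and 0.0225. It went from 53.9 to 68.0 CPM with vehicle to 90.7 to 99.5 CPM with IL-25 and 96.6 to 125 CPM with both. The calls of Gar1 in IL25R+ cells were kept under all 21 alternatives. Dkc1 was called in no comparison, and its log2 changes ran from -0.24 ± 0.13 with IL-33 in IL25R+ cells to 0.29 ± 0.47 in ST2+ cells.

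Nop10 (chr2:112261926-112263269, + strand) had another pattern. It was at 124, 125 and 102 CPM with vehicle, 233, 145 and 173 CPM with IL-25, 167, 96.9 and 81.3 CPM with IL-33 and 57.4, 90.3 and 95.5 CPM with both. The IL-25 libraries lay above and the libraries with both below every vehicle library. Nop10 rose with IL-25 by 0.65 ± 0.22 (edgeR adjusted p = 0.0473, a call kept under 10 of 21 alternatives) and was lower with both than with IL-25 by -1.17 ± 0.22 (0.0049). With the Glycam1 split as a term, which rests on the IL-33 libraries alone, both calls were lost, at -0.054 (0.948) and -0.47 (0.692). In ST2+ cells Nop10 was near the floor, at 8.28, 18.1, 5.16 and 3.70 CPM with vehicle and 1.41, 21.2, 6.40 and 2.35 CPM with IL-33, where libraries 2 of both groups were highest and the log2 change was -0.37 ± 0.85 (edgeR adjusted p = 0.805).

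**Figure D3:**
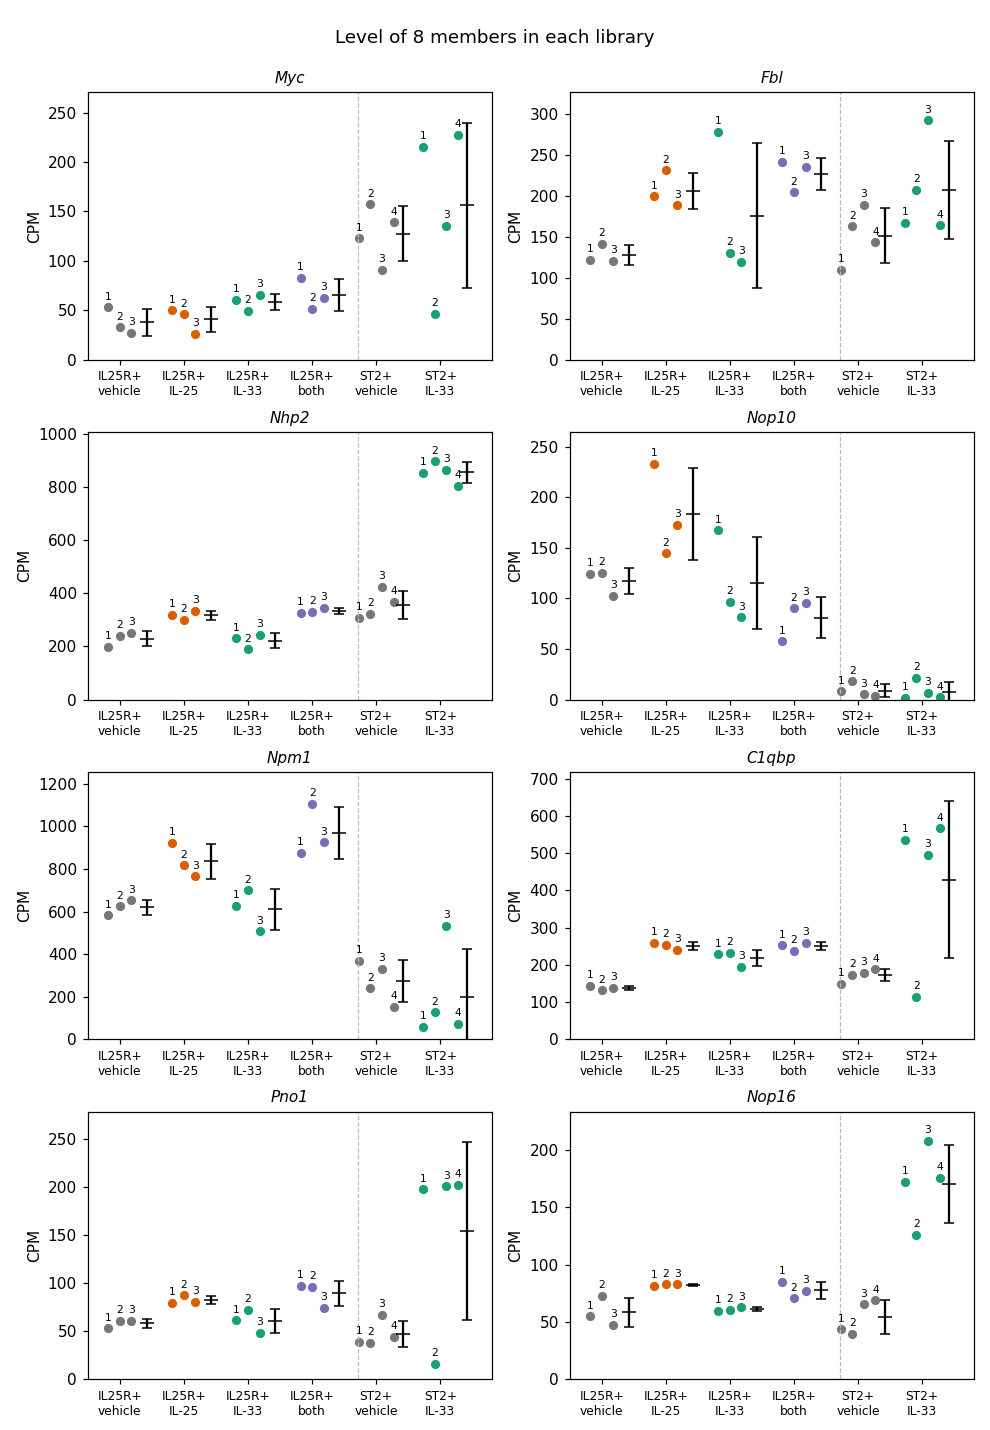
Level in CPM of 8 members in each library, with library numbers over the points and the group mean ± SD in black; dashed line between populations. Nhp2 is above 800 CPM in all 4 ST2+ IL-33 libraries, while library 2 is lowest of the 4 in Myc, C1qbp, Pno1 and Nop16 and library 3 is highest in Npm1.

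Of the 7 nucleolar chaperones, scaffolds and multifunctional proteins, Npm1 and C1qbp were called most often in IL25R+ cells. Npm1 (nucleophosmin, a nucleolar chaperone that binds histones and ribosomal proteins, chr11:33152287-33163206, - strand) was at 582, 624 and 653 CPM with vehicle, 923, 818 and 766 CPM with IL-25, 628, 700 and 508 CPM with IL-33 and 875, 1107 and 926 CPM with both. All libraries that had IL-25 were above all that did not. Npm1 rose with IL-25 by 0.43 ± 0.13 (edgeR adjusted p = 0.0267), with both over vehicle by 0.65 ± 0.13 (0.00145) and with both over IL-33 by 0.66 ± 0.13 (0.00117). The last 2 calls were kept under all 21 alternatives, the first under 14.

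In ST2+ cells Npm1 was at 370, 240, 332 and 152 CPM with vehicle and 59.9, 127, 532 and 71.98 CPM with IL-33. Libraries 1, 2 and 4 were below every vehicle library and library 3 above them all, so that the log2 change was -0.47 ± 0.62 (edgeR adjusted p = 0.64) with all 8 and -1.67 (0.0172) without library 3. Npm1 has many processed copies in mammalian genomes, and how reads shared with such copies were counted is not stated.

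C1qbp, an acidic protein of mitochondria and nucleoli (chr11:70977836-70983026, - strand), was at 144, 131 and 139 CPM with vehicle, 260, 254 and 240 CPM with IL-25, 229, 233 and 194 CPM with IL-33 and 253, 237 and 260 CPM with both. Every treated library lay above every vehicle library, and the groups with IL-25, with or without IL-33, covered the same range. C1qbp rose by 0.86 ± 0.12 with IL-25 (edgeR adjusted p = 3.21e-05), 0.66 ± 0.12 with IL-33 (0.0363) and 0.85 ± 0.12 with both (3.15e-05). The IL-33 call was kept under 10 of 21 alternatives and the call with both under all 21. The joint effect was below the sum of the single ones by -0.67 ± 0.17 (edgeR adjusted p = 0.0356), a call kept under 5 of 20 alternatives.

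In ST2+ cells C1qbp was at 150, 173, 179 and 188 CPM with vehicle and 536, 115, 496 and 567 CPM with IL-33. Library 2 was below every vehicle library and the other 3 were far above. The rise was 1.32 ± 0.40 (edgeR adjusted p = 0.0432) and 1.66 (6.24e-05) without library 2, and the call was lost without any other 1 library. Of the other members of this group, Nolc1, a snoRNP chaperone, rose in ST2+ cells by 0.76 ± 0.24 (edgeR adjusted p = 0.0497, kept under 6 of 16 alternatives). Ncl (nucleolin) rose with both over IL-33 by 1.09 ± 0.37 (0.045) at a low level of 4.62 to 18.5 CPM in all IL25R+ libraries. That call was kept under 3 of 21 alternatives, and exons of Ncl overlap a microRNA gene on the same strand. Ddx21, Gnl3 and Npm3 were called in none of the comparisons within a population.

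Of 11 small subunit factors tested, 1 rose and 1 fell with IL-25, none was called with IL-33, 3 rose with both over vehicle and 2 rose with IL-33 in ST2+ cells. Over all genes 9.07% rose and 5.9% fell with IL-25, and 0.237% were called with IL-33. With both 8.97% of all genes rose, and with IL-33 in ST2+ cells 8.52%. The count with IL-25 thus does not set these factors apart from other genes. Their median log2 change was 0.41 with both and 0.64 with IL-33 in ST2+ cells, against -0.03 and 0.00136 for all genes. Imp4, a component of the small subunit processome (chr1:34439851-34449356, + strand), was at 71.3, 65.6 and 41.7 CPM with vehicle, 69.3, 70.8 and 77.2 CPM with IL-25, 57.0, 67.3 and 72.05 CPM with IL-33 and 91.5, 90.3 and 91.1 CPM with both. The 3 libraries with both were the highest of the 12. Imp4 rose with both by 0.60 ± 0.16 over vehicle (edgeR adjusted p = 0.015) and by 0.48 ± 0.16 over IL-33 (0.0409). In ST2+ cells it was at 100, 123, 122 and 98.0 CPM with vehicle and 238, 94.6, 224 and 233 CPM with IL-33, below the vehicle range in library 2 and above it in the other 3, with a log2 change of 0.85 ± 0.28 (0.0581) and 1.11 (0.000551) without that library.

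Pno1, which helps the last cut of the small subunit RNA (chr11:17203198-17211568, - strand), was at 53.0, 60.9 and 60.7 CPM with vehicle, 79.7, 87.1 and 80.7 CPM with IL-25, 61.4, 72.3 and 48.0 CPM with IL-33 and 97.3, 96.3 and 74.5 CPM with both. Every library that had IL-25 was above every library that did not. Pno1 rose by 0.51 ± 0.16 with IL-25 (edgeR adjusted p = 0.0356) and 0.63 ± 0.16 with both (0.00958). In ST2+ cells it was at 38.8, 37.9, 67.1 and 44.0 CPM with vehicle and 198, 15.6, 201 and 203 CPM with IL-33. Library 2 was the lowest of the 8 and the other 3 lay within a few CPM of each other. The log2 change, 1.75 ± 0.57, was the highest of the members but did not pass (edgeR adjusted p = 0.0578), and it was 2.16 (7.69e-05) without library 2.

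Rrp12 (chr19:41862851-41896173, - strand), known in yeast as a factor for nuclear export of both subunits, fell with IL-25. It was at 64.1, 66.8 and 64.5 CPM with vehicle, 46.0, 48.2 and 48.7 CPM with IL-25, 48.2, 62.2 and 62.8 CPM with IL-33 and 58.8, 55.8 and 58.0 CPM with both. All 9 treated libraries lay below all vehicle libraries, and the fall by -0.45 ± 0.15 with IL-25 had an edgeR adjusted p of 0.0477, kept under 5 of 21 alternatives. In ST2+ cells Rrp12 was at 18.6, 57.8, 34.4 and 30.3 CPM with vehicle and 49.2, 37.8, 51.9 and 52.0 CPM with IL-33, overlapping groups with a log2 change of 0.51 ± 0.32 (edgeR adjusted p = 0.302). Wdr43, a processome subunit, rose with both over vehicle (0.57 ± 0.17, 0.0295) and over IL-25 (0.66 ± 0.17, 0.0338). Rrp9, the U3 snoRNP protein, and Noc4l, a processome factor, rose in ST2+ cells by 1.33 ± 0.26 (0.00666) and 1.22 ± 0.30 (0.0205), each by edgeR. Bysl, Utp20 and Heatr1 were called in no comparison within a population.

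Of the 14 large subunit factors tested in ST2+ cells, 11 rose with IL-33, where 8.52% of all genes rose. Those that rose were Bop1, Pes1, Wdr74, Mrto4, Noc2l, Nop2, Nop16, Nle1, Ppan, Rrp15 and Grwd1. The 14 had a median log2 change of 1.12, against 0.64 for the 11 small subunit factors tested and 0.00136 for all genes. The difference between both sets of factors was not tested. Among assembly factors that are not members the order was the reverse, with medians of 0.53 for 37 large and 0.66 for 42 small subunit factors. Bop1 and Pes1 form the PeBoW complex, which prepares the large subunit RNA, and rose by 1.15 ± 0.21 (edgeR adjusted p = 0.00511) and 0.88 ± 0.27 (0.0495), the former kept under 15 and the latter under 4 of 16 alternatives. Without IL-33 library 2 the count was 13 of 14, with no share over all genes set beside it.

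Nop16, a large subunit factor of the nucleolus and a known Myc target (chr13:54584185-54590090, - strand), was at 43.5, 39.7, 65.4 and 68.8 CPM in ST2+ vehicle libraries and 172, 126, 208 and 176 CPM with IL-33. The lowest IL-33 library was well above the highest vehicle library, and Nop16 rose by 1.64 ± 0.25 (edgeR adjusted p = 0.00196), or 3.12-fold. In IL25R+ cells it was at 54.9, 72.6 and 47.4 CPM with vehicle, 81.6, 82.9 and 82.8 CPM with IL-25, 59.9, 60.8 and 62.8 CPM with IL-33 and 85.0, 70.6 and 77.1 CPM with both. Nop16 rose there with IL-25 by 0.52 ± 0.15 (0.0249) and was at 0.42 ± 0.15 with both (0.0648). Mrto4, a relative of the ribosomal stalk protein P0, rose by 1.61 ± 0.23 in ST2+ cells (edgeR adjusted p = 0.00172), by 0.57 ± 0.15 with IL-25 (0.0128) and by 0.49 ± 0.15 with both (0.0287).

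Noc2l, a nucleolar protein known in yeast to escort large subunit precursors (chr4:156236010-156247616, + strand), was at 146, 150, 114 and 132 CPM with vehicle and 238, 207, 206 and 207 CPM with IL-33 in ST2+ cells. The IL-33 libraries lay above all vehicle libraries and the rise was 0.66 ± 0.17 (edgeR adjusted p = 0.0241), kept under 9 of 16 alternatives. In IL25R+ cells Noc2l was at 181, 168 and 132 CPM with vehicle, 188, 131 and 146 CPM with IL-25, 181, 152 and 192 CPM with IL-33 and 198, 175 and 161 CPM with both, overlapping in every comparison with log2 changes from -0.05 ± 0.15 to 0.19 ± 0.15. Exons of Noc2l overlap those of Samd11 on the other strand. Nop2, the methyltransferase whose E-box window is shown above, rose by 1.25 ± 0.19 with IL-33 in ST2+ cells (edgeR adjusted p = 0.00212) and by 0.64 ± 0.16 with both in IL25R+ cells (0.00852), the latter under all 21 alternatives.

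Wdr12 (chr1:60069785-60098645, - strand), the third PeBoW subunit, fell in IL25R+ cells. It was at 70.0, 59.7 and 59.8 CPM with vehicle, 45.4, 45.3 and 41.7 CPM with IL-25, 53.3, 60.0 and 39.7 CPM with IL-33 and 41.4, 49.2 and 40.8 CPM with both. All libraries with IL-25 or both were below all vehicle libraries, by -0.53 ± 0.17 with IL-25 (edgeR adjusted p = 0.039) and -0.53 ± 0.17 with both (0.034), kept under 13 and 15 of 21 alternatives. In ST2+ cells Wdr12 had 1, 0, 1 and 2 counts with vehicle and 16, 1, 18 and 15 counts with IL-33 and did not pass the filter on low counts there. Ebna1bp2 did not pass it either, with 2 to 7 counts with vehicle and 6 to 31 with IL-33. Rrs1, Ddx18 and Rrp1b were tested and were called in no comparison within a population.

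Calls in the populations can be set side by side where they share no library. Of the 11 members that rose with IL-25 in IL25R+ cells, 7 (63.6%) also rose with IL-33 in ST2+ cells, and these made up 38.9% of the 18 called there. Over all genes, 22.4% of those that rose with IL-25 also rose in ST2+ cells, and 42.9% of all members tested there rose. The shared members were C1qbp, Gar1, Grwd1, Mrto4, Nhp2, Nop16 and Rrp15, while Fbl, Nop10, Npm1 and Pno1 rose with IL-25 and did not pass in ST2+ cells. Of the 13 that rose with both cytokines 7 (53.8%) also rose in ST2+ cells, against 30.5% over all genes.

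The effect of IL-33 was then compared between the populations, in 1 fit over all 20 libraries. It was higher in ST2+ than in IL25R+ cells for 15 of 44 members tested and lower for none, where 11.5% of 8964 genes were called, 4.66% higher and 6.85% lower. The difference was above 0 in 41 members and in 46.8% of all genes, and the members' median on the log2 scale was 0.84 against -0.05. The 15 were Nop56, Nop58, Nhp2, Nolc1, Gnl3, Rrp9, Bop1, Wdr12, Mrto4, Nop2, Nop16, Nle1, Ppan, Rrp15 and Grwd1. Among them Nop58 differed by 1.63 ± 0.43 (edgeR adjusted p = 0.0174), Nop16 by 1.61 ± 0.30 (0.00191) and Nhp2 by 1.37 ± 0.22 (0.000435). Nhp2, Nop16 and Mrto4 were called under all 30 alternatives. Wdr12 entered this fit through IL25R+ cells alone, since the ST2+ filter removed it, and its 2.82 ± 0.76 (0.0184) rests on 4 counts in all in ST2+ vehicle libraries. Without the members that the ST2+ filter removed, 14 of 42 were called. The difference was -0.20 ± 0.53 for Myc (0.853), 0.73 ± 0.45 for C1qbp (0.311), 0.06 ± 0.36 for Fbl (0.951) and -0.40 ± 0.68 for Npm1 (0.762), each by edgeR.

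That count was 9 without IL25R+ vehicle library 1 or with library totals alone, which moved the median of all genes by -0.11. It was 5 with the Glycam1 split as a term, without IL25R+ IL-33 libraries 1 and 2, or with ST2+ libraries 2 and 3 of each group alone. It was 27 without ST2+ IL-33 library 2 and 31 with libraries 1 and 4 alone, with no share over all genes set beside these counts. The populations were counted in separate tables, and population and table cannot be told apart.

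**Figure D4:**
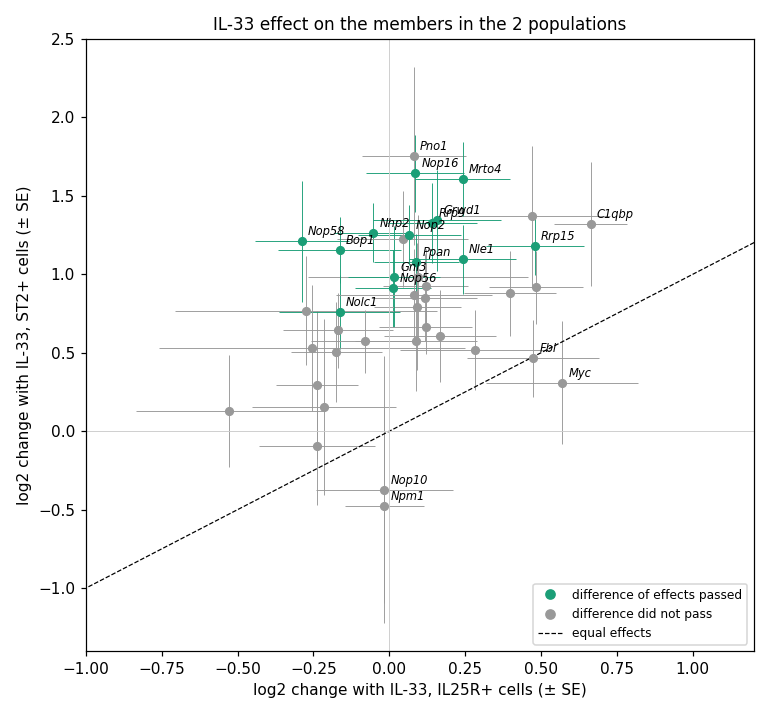
log2 change with IL-33 against vehicle in IL25R+ cells (x) and ST2+ cells (y) for the 42 members tested in both, with SE bars and the line of equal effects; green marks members whose difference passed. Nop16, Nhp2 and Mrto4 lie far above the line, Fbl lies near it and Npm1 and Nop10 lie below 0 in ST2+ cells.

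The other genes of the pathway were taken from 8 lists. Myc targets outside the nucleolus, mostly enzymes of nucleotide, polyamine and one-carbon metabolism, chaperones and translation factors, rose in several comparisons. With none falling, 9 of 29 rose with IL-25, 14 of 29 with both, none was called with IL-33 and 16 of 28 rose with IL-33 in ST2+ cells. Over all genes 9.07% rose with IL-25, 8.97% with both and 8.52% in ST2+ cells, and only 0.237% were called with IL-33. The targets' median log2 changes were 0.35, 0.46, 0.11 and 0.86, against -0.03, -0.03, 0.01 and 0.00136 for all genes. Srm, which makes spermidine, rose by 1.98 ± 0.22 in ST2+ cells (edgeR adjusted p = 0.000546) and by 0.90 ± 0.13 with both (6.44e-05). Ranbp1, a partner of the nuclear transport GTPase Ran, rose by 0.92 ± 0.14 with IL-25 (0.000122). With the Glycam1 split as a term 1 target was higher and 1 lower with IL-25, and 15 were higher with both.

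Few assembly factors that are not members were called in IL25R+ cells. With IL-25, 1 of 43 other small subunit factors and 1 of 40 other large subunit factors rose, where 9.07% of all genes rose. With both cytokines 2 of each set rose and 2 small subunit factors fell, where 8.97% of all genes rose and 6.67% fell. The shares of these factors that rose lay below those of all genes. In ST2+ cells 9 of 42 and 9 of 37 rose and none fell, with median log2 changes of 0.66 and 0.53. Of all genes 8.52% rose there, and the median of all genes was 0.00136. Utp4, a processome subunit, rose there by 2.27 ± 0.51 (edgeR adjusted p = 0.0134) and Pa2g4, a large subunit factor, by 1.99 ± 0.27 (0.00118). Without IL-33 library 2 the counts were 17 and 16 higher, with no share over all genes set beside them.

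Other RNA polymerase I factors split in direction. Rrn3, the initiation factor that joins polymerase I to the promoter, fell with IL-25 by -0.60 ± 0.17 (edgeR adjusted p = 0.0218) and rose with IL-33 in ST2+ cells by 1.56 ± 0.41 (0.0253). Of the 13 tested, Polr1d rose with IL-25 (0.47 ± 0.11, 0.00558) and Ttf1, a terminator of rRNA transcription, fell with both (-0.67 ± 0.21, 0.0288). In the Myc network, Mxd3, which pairs with Max and represses, rose by 3.30 ± 0.41 with IL-25 (9.63e-06) and 2.85 ± 0.43 with both (8.03e-05) and fell in ST2+ cells by -1.21 ± 0.23 (0.00578), each by edgeR. Mycl was not listed in either table. Of 13 rRNA exosome and maturation genes, 3 rose with IL-25 and 1 with both, and 1 of 12 rose in ST2+ cells. Over all genes 9.07% rose and 5.9% fell with IL-25, 8.97% rose and 6.67% fell with both, and 8.52% rose in ST2+ cells. The single calls with both and in ST2+ cells thus do not set the exosome list apart from other genes. Of the snoRNA host genes without a protein product, 2 of 12 rose with both and 3 of 10 in ST2+ cells, Snhg6 by 0.63 ± 0.15 (edgeR adjusted p = 0.00531) and 1.77 ± 0.35 (0.00748).

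Cytosolic ribosomal proteins, the parts that the members assemble, rose with IL-25 in 29 of 76 and with both in 23 (2 fell), and none was called with IL-33 in IL25R+ cells. Over all genes 9.07% rose with IL-25 and 8.97% with both, and only 0.237% were called with IL-33. In ST2+ cells 1 of 75 rose, Rps27l (1.46), and 1 fell, Rpl7 (-1.13), where 8.52% of all genes rose and 8.03% fell. The median log2 change of the ribosomal proteins there was -0.13, while that of the members was 0.87. Without IL-33 library 2, the one rich in ribosomal protein counts, 4 rose and 20 fell, and with libraries 1 and 4 of each group alone 3 rose and 52 fell. With libraries 2 and 3 alone none was called and the median of the ribosomal proteins was 0.25. No share over all genes is set beside these counts under other fits. In IL25R+ cells 18 rose and 1 fell with IL-25 when the Glycam1 split was a term, and 13 rose and 1 fell with library totals alone.

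**Figure D5:**
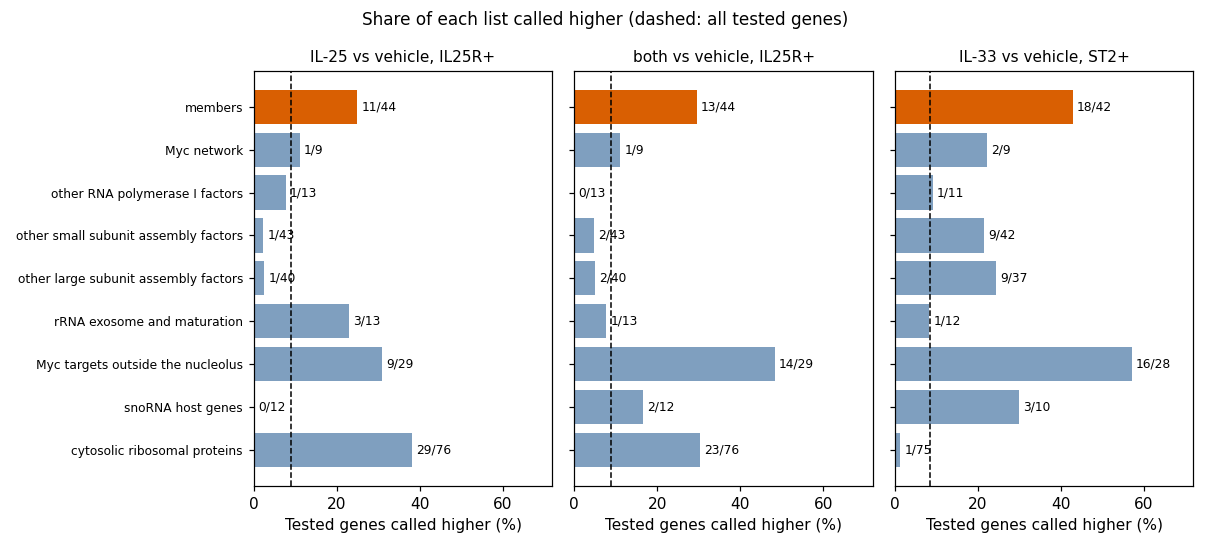
Share of the tested genes of each list called higher (adjusted p under 0.05) in 3 comparisons, with the number called over the number tested beside each bar and all tested genes as the dashed line. Ribosomal proteins stand at 29 of 76 with IL-25 and at 1 of 75 in ST2+ cells, where the members stand at 18 of 42.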

How the data were processed

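Gene counts per library were deposited by the authors in 2 tables, and per the submitters' processing notes bcl2fastq, cutadapt, STAR 2.5.2b, HTSeq and DESeq2 were used with mm10. Whether reads or molecular tags were counted, and on which strand, is not given in the sources used here. The normalized signal values and the log2 fold changes that the authors deposited beside the counts were not used. All 20 libraries were used (no column was left unmapped). Counts were fitted across all genes of a table with edgeR 4.0.16 (R 4.3.3): TMM scaling, filterByExpr (minimum count 10, total 15, proportion 0.7), quasi-likelihood test, Benjamini-Hochberg adjusted p under 0.05 over all tested genes. The 4 IL25R+ groups shared 1 estimate of the spread, the ST2+ groups had another, and the difference of IL-33 effects was fitted over genes in both tables. CPM is the count over the TMM-scaled library size.

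Alternatives were DESeq2 size factors, no filter, DESeq2 1.42.0, limma-voom (limma 3.58.1), a replicate block, a fit of only the 2 groups compared, and leaving out 1 library at a time. Added after seeing the data were library totals alone, the Glycam1 split (10 CPM) as a term, IL25R+ IL-33 libraries 1 and 2 left out, and ST2+ libraries 1 and 4, or 2 and 3, of each group alone. A fit that leaves 1 library in a group assumes that it varies like the others. Values per library are given for Myc and, in each role group, for the member with the highest mean level, the one with the largest change and any called against the majority; other genes named were chosen after their values were seen. The members, lists and tests were chosen with earlier results of these data known. On simulated counts the fit recovered 95% of genes changed by a log2 of 1 and 100% of those changed by 2 for IL-25 against vehicle (8704 genes), and 26% and 97% for IL-33 in ST2+ cells (7736 genes). Of the calls made, 5.80% and 2.38% were false. Only genes with counts well above the filter were changed, and all genes had the same spread with no outlying library. The rates may thus not hold for members with few counts or for the uneven ST2+ libraries. No replicate pair agreed within sampling noise.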

Additional observations from a re-analysis of the deposited data

Results flagged for a closer look

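For the 15 members with values per library, the highest and lowest library of each 4-library ST2+ group were checked. The gap to the neighbour, as a share of the group's range, was above Dixon's critical value in 6 of 30 groups of values. The members were read in the same libraries and were partly chosen by their change, so no chance rate can be set beside this count. All 6 were in the IL-33 group. Library 2 was the low one in C1qbp (115 CPM), Imp4 (94.6 CPM), Nop58 (43.4 CPM) and Pno1 (15.6 CPM). Library 1 was the high one in Noc2l (238 CPM) and library 3 in Npm1 (532 CPM).

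The effect of IL-33 was higher in ST2+ than in IL25R+ cells by a log2 of 1.63 for Nop58 (edgeR adjusted p = 0.0174), 1.37 for Nhp2 (0.000435), 1.61 for Nop16 (0.00191) and 2.82 for Wdr12 (0.0184). Wdr12 had 0 to 2 counts in ST2+ vehicle libraries and did not pass the filter there, so its value is no firm difference. For C1qbp in IL25R+ cells, the effect of both cytokines was below the sum of the single effects by a log2 of -0.67 (0.0356).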

How the results depend on the processing

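Counts of members called were within 1.5 times the reported ones under the alternatives not named here. The cause was not tested for the others. The share of all genes called under each alternative is not set beside these counts. A moved count thus does not show a stronger or weaker response of the members. For IL-25 against vehicle (13) the count was 7 by DESeq2, 5 with library totals alone and 4 with the split term. The log2 changes of Fbl (-0.080) and Nop10 (-0.054) changed sign with that term, which is estimated within the IL-33 group alone. IL-33 against vehicle in IL25R+ cells (1) gave 0 without the filter or with the 2 groups alone and 2 without IL-33 libraries 1 and 2. Both against vehicle (14) gave 23 without those libraries and 22 with the 2 groups alone. Both against IL-25 (3) gave 0 with the split term, 10 without those libraries and 11 with the 2 groups alone. The interaction (1) gave 2 by DESeq2 and 0 with library totals, the split term or the replicate block. IL-33 in ST2+ cells (18) gave 33 with libraries 1 and 4 alone and 0 with libraries 2 and 3 alone. The difference between populations (15) gave 9 with library totals, 5 with the split term, without IL25R+ IL-33 libraries 1 and 2 or with ST2+ libraries 2 and 3 alone, and 31 with ST2+ libraries 1 and 4 alone.

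Leaving out 1 library at a time gave 3 to 15 for IL-25, 0 to 1 for IL-33, 8 to 20 for both against vehicle, 1 to 6 for both against IL-25, 5 to 12 for both against IL-33, 0 to 4 for the interaction, 9 to 29 for IL-33 in ST2+ cells and 9 to 27 for the difference. The number of calls over all genes can move with the same libraries, and its share is not given beside these counts.

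With the replicate number as a block the counts were 12 and 14 for IL-25 and both against vehicle, 7 for both against IL-33, 15 for IL-33 in ST2+ cells and 19 for the difference. Correlations of deviations between libraries were used to see whether the numbers pair them. In IL25R+ cells they showed no pairing, at -0.123 to 0.125 over 18 pairs of the same number and -0.0943 to 0.167 over 36 of different numbers. In ST2+ cells they ran from 0.0198 to 0.252 over 4 pairs of the same number and from -0.264 to 0.130 over 12 of different numbers. These few overlapping values cannot settle whether the ST2+ libraries are paired.

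Low depth limits Nip7, Wdr12, Ebna1bp2 and Nop10 in ST2+ cells most, and the wide spread between ST2+ libraries limits small changes there.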
